A study of Mus musculus with 28 samples.

Results

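Restimulated Th17 cells were compared with restimulated Th1 cells 5 days after transfer into mice, on 3 arrays of each type. These 6 arrays were chosen by their titles, out of 28 in the series. All cells were CD4+ T cells of the strain BwTRP1 Rag1-/-, which carry a transgenic T cell receptor for TRP1, a protein of pigment cells. Both types were first cultured for 7 days with irradiated C57/B6 splenocytes that presented TRP1 peptide. The Th1 cultures received IL-12 and an antibody to IL-4. The Th17 cultures received IL-1, IL-6, IL-21 and TGFβ2 along with antibodies that block IL-2, IL-4 and IFN-γ, and later IL-23, and IL-2 medium was added to both types after the initial days. The cells, marked by Thy1.2, were then transferred into B6.PL hosts, marked by Thy1.1, that had been irradiated with 5 Gy. At day 5 they were recovered from pooled spleens and inguinal lymph nodes by CD4 enrichment and a sort for Thy1.2. Every sample was divided, and the part described here was exposed for 2 h to antibodies against CD3 and CD28 while the other part was left unstimulated. The number of mice behind a sample is not stated, and sublethal irradiation leaves a host some lymphoid and myeloid cells of its own.

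Th1 and Th17 cells are helper T cells that share most of their machinery and differ in the cytokines they can release. Th1 cells make IFN-γ under the transcription factor T-bet and act on macrophages, while Th17 cells make IL-17A and IL-17F, depend on IL-23 to persist, and act on epithelial and stromal cells, which in turn attract neutrophils. A brief signal through CD3 and CD28 switches on stored cytokine genes, so a restimulated sample shows what each type is poised to release as well as what it carries at rest.

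The values are log2 units of Affymetrix arrays after RMA, a procedure that corrects background, equalises the arrays and combines the probes of each probe set. Calling a gene where the limma p, adjusted by Benjamini-Hochberg, was under 0.05 gave 793 of the 19938 genes tested, which is 3.98%. Among them 589 (2.95% of all genes) were higher and 204 (1.02%) were lower in Th17 cells, and 170 differed at least 2-fold, 127 of them higher and 43 lower. Over all genes the median difference, Th17 minus Th1, was 0.0049 log2 units. Leaving out Th1 array 3 gave 488 called genes and leaving out Th17 array 3 gave 503, and 389 of the 793 were called whichever of the 6 arrays was left out. The labels do not say that the 3 samples of a type came from separate mice, so the p-values speak only of the spread among these samples. Folds are ratios of RMA values. The gene lists were chosen with earlier results of these data known, so their counts of called members are descriptions only. Where 3 values are set against 3 others, the Th17 arrays come first, and both follow the replicate numbers. Arrays without overlap are not rare: Th17 lay all above Th1 in 10.9% of all genes and all below in 7.21%. The genes named for the largest differences were picked among called genes without overlap.

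The arrays of a type resembled each other closely, with correlations over all genes of 0.996 to 0.997 within Th1 and 0.993 to 0.996 within Th17, against 0.988 to 0.994 between the types. Array medians over all probe sets ran from 6.92 to 7.03 log2 units. No detection calls are used here, so a level below its array median may be background. The CD4 T cell markers were high and even: their mean ran from 12.37 to 12.43 on the Th1 arrays and 12.39 to 12.51 on the Th17 arrays, and limma called 0 of 9, also 0 at an unadjusted p under 0.05. Neutrophil and myeloid markers were not even. The mean of the 16 genes was 6.17 to 6.25 on the Th1 arrays but 8.02, 6.68 and 6.88 on Th17 arrays 1, 2 and 3, and 3 were called higher (1 higher and 0 lower without Th1 array 1, 0 higher and 0 lower without Th1 array 3, 0 higher and 0 lower without Th17 array 1 and 5 higher and 0 lower without Th17 array 2). Over all genes the share called higher was 2.95%. Lcn2, an iron-binding protein of neutrophils, read 11.14, 8.36 and 8.88 on Th17 arrays 1 to 3 and 6.90, 6.52 and 6.54 on Th1 arrays 1 to 3 (difference 2.80, adjusted p = 0.0113, 0.053 without Th1 array 3 and 0.124 without Th17 array 1, 0.0523 with a trended robust prior, and 0.258 at a difference of 0.72 with the mean of the myeloid markers as a covariate). Lcn2 is itself 1 of the 16 genes in that mean, so part of its drop with the covariate is built in. Of the other marker lists, B cell means were 5.94 to 6.16, dendritic and MHC class II means 6.98 to 7.17, erythroid means 6.42 to 6.58, NK cell means 5.40 to 5.87 and CD8 T cell means 7.35 to 7.56 over the 6 arrays. Among 6 NK cell genes Klrb1c was called higher (1.06, adjusted p = 0.00155). Of 10 dendritic and MHC class II genes H2-Ab1 was higher (0.64, adjusted p = 0.0267) and Itgax lower (-1.17, adjusted p = 0.0119). Of 9 B cell genes Cd22 was lower (-0.63, adjusted p = 0.0172). All but the Klrb1c call were lost when single arrays were left out. No erythroid or CD8 T cell gene was called, and over all genes the share called was 3.98%. When the mean of the myeloid markers entered the model as a covariate, an alternative added after seeing the data, 370 genes were called, 268 higher and 102 lower. That mean was higher on every Th17 array than on any Th1 array, so the covariate can also take up part of the type difference. Why calls were lost with it was not tested. In RNA of a whole population, fewer cells of a type and less RNA per cell cannot be told apart.

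**Figure D1:**
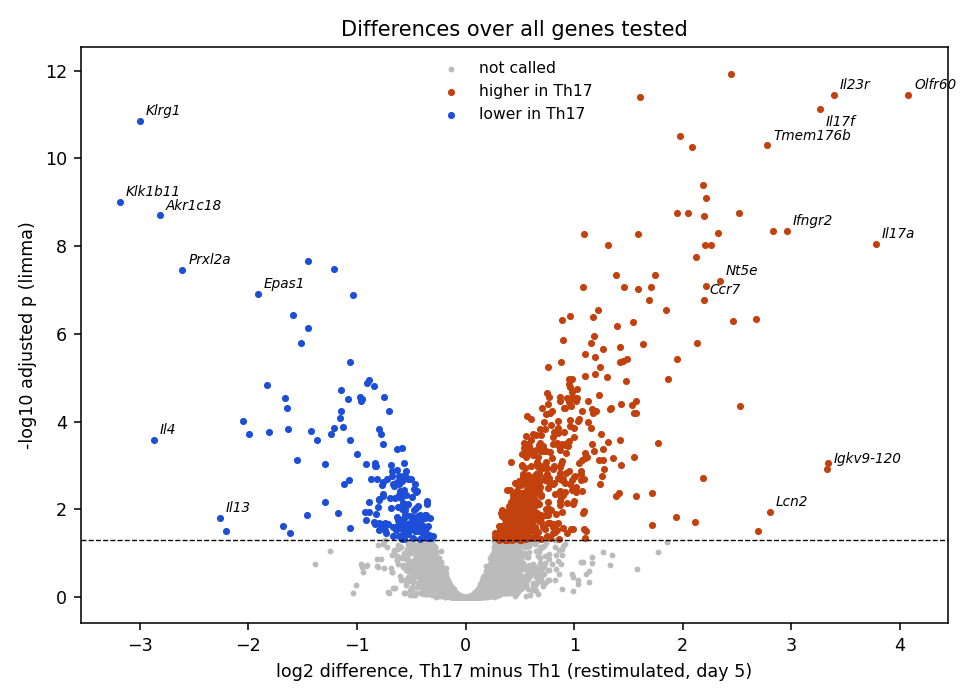
Each point is 1 of the 19938 genes. The horizontal axis is the log2 difference between restimulated Th17 and Th1 cells at day 5 (means of 3 arrays each), the vertical axis is −log10 of the limma adjusted p, and the dashed line marks an adjusted p of 0.05. The 589 genes called higher in Th17 cells outnumber the 204 called lower, with Il17a, Il17f, Il23r and Olfr60 at the far right and Klk1b11, Klrg1 and Il4 at the far left.

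The cytokine genes that give Th17 cells their name were far higher in restimulated Th17 cells: Il17a by 13.7-fold and Il17f by 9.6-fold, with the chemokine gene Ccl20 higher as well. Il17a (probe set 10345032) read 10.31, 10.21 and 10.30 on Th17 arrays 1 to 3 and 6.52, 6.45 and 6.50 on Th1 arrays 1 to 3, a log2 difference of 3.78 ± 0.30 (SE, limma adjusted p = 8.88e-09). Il17f (probe set 10353415), its close relative and partner in the IL-17 heterodimer, read 9.66, 9.99 and 10.18 in Th17 cells and 6.73, 6.66 and 6.64 in Th1 cells (difference 3.26 ± 0.17, adjusted p = 7.35e-12). The types are far apart for both genes, and each Th1 array lies under the array median. Ccl20 (probe set 10347888) encodes the chemokine that attracts CCR6-bearing cells, and read 7.82, 7.63 and 8.53 against 6.35, 6.54 and 6.46 (difference 1.55 ± 0.16, adjusted p = 5.43e-07). Il21, a cytokine that Th17 and follicular helper cells share, read 10.74, 11.02 and 11.60 in Th17 cells and 11.55, 10.65 and 11.73 in Th1 cells. Those values overlap, with a difference of -0.19 (95% interval -1.34 to 0.96, adjusted p = 0.987). The Th17 cytokine list had 7 measured genes, of which 3 were higher, 0 lower, and the median difference was 0.20. Among all genes 2.95% were called higher and 1.02% lower.

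The unstimulated parts of the day 5 samples show the same genes without the 2 h signal. Without it, Il17a read 6.79, 6.71 and 7.15 on Th17 arrays and 6.41, 6.44 and 6.33 on Th1 arrays, a difference of 0.49. Restimulation moved the Th17 mean by 3.39 and the Th1 mean by 0.10. A test of the interaction asked, for every gene, whether the difference between the types was another one with restimulation than without. It called 4 genes (0.0201% of all tested), all with a difference that was more positive after restimulation. They were Il17a, at an interaction of 3.29 (adjusted p = 0.00082), Il17f at 2.91 (adjusted p = 5.18e-07), Ccl20 at 1.40 (adjusted p = 0.0159) and Dab2 at 1.27 (adjusted p = 0.0382). An unadjusted p under 0.05 was found for 490 of the 19938 genes. That share is below the 0.05 that would be met with no interaction in any gene, so the 490 are no set of weaker results. Dab2, which encodes an endocytic adaptor protein, read 7.18, 7.22 and 7.74 in restimulated Th17 cells, 5.60, 5.95 and 5.48 in restimulated Th1 cells, 5.97, 6.09 and 6.12 in unstimulated Th17 cells and 5.55, 5.76 and 5.56 in unstimulated Th1 cells. The interaction calls of Il17a and Il17f held under every alternative that tested them. The adjusted p of Ccl20 was 0.0887 without restimulated Th1 array 1, 0.0585 without restimulated Th1 array 3, 0.0531 without Th1 unstimulated array 1, 0.075 without Th1 unstimulated array 3 and 0.0897 without Th17 unstimulated array 1, and 0.116 with only the compared groups in the fit. That of Dab2 was 0.06 to 0.218 when any of 9 arrays was left out (restimulated Th1 arrays 1 and 3, restimulated Th17 array 3 and every unstimulated array), 0.107 with only the compared groups and 0.0613 with the myeloid covariate. When all probe sets of a gene were averaged, the interaction of Dab2 was 0.67 (adjusted p = 0.577). The model treats the 2 parts of a sample as independent, and a pairing of the 2 parts within each sample was not tested. With the replicate number as a block, which joins both types and both parts of equal number, it called 6 genes. In the cultures before transfer, with 1 array per group and so no spread, the restimulated difference was 5.65 for Il17a, 6.18 for Il17f and 4.23 for Ccl20.

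**Figure D2:**
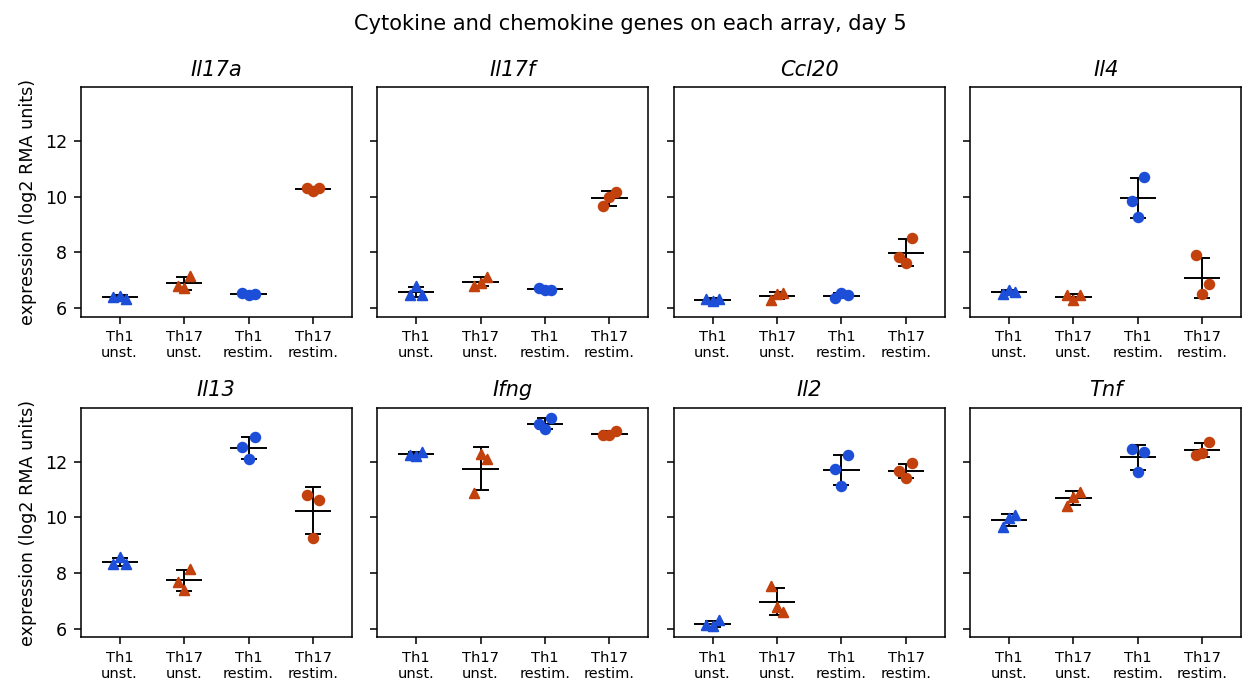
Each panel shows a cytokine or chemokine gene at day 5, in log2 RMA units, with 1 point per array (triangles unstimulated, circles restimulated), a bar for the mean and whiskers of 1 SD over 3 arrays. Il17a, Il17f and Ccl20 are high only on the restimulated Th17 arrays, Il4 and Il13 rise further on the Th1 arrays, and the restimulated values of Ifng, Il2 and Tnf lie close together or overlap between the types.

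The sequences upstream of these genes are shown because the 3 Th17 genes shared the restimulation pattern, with Il13, an inducible gene with the opposite difference, beside them. They are the 250 bases before the annotated start in RefSeq (GRCm38.p6), written 5′ to 3′ on the gene's strand. Capitals mark matches, on either strand, to TGANTCA (the AP-1 site), GGAAAA (the core bound by NFAT factors) and AGGTCA (the half-site of ROR nuclear receptors, the family of RORα and RORγt). Il17a lies at chr1:20730655-20730904, plus strand. Il17f is at chr1:20784271-20784520, minus strand, and Ccl20 at chr1:83116516-83116765, plus strand. Il13 is at chr11:53634703-53634952, minus strand.
Il17a: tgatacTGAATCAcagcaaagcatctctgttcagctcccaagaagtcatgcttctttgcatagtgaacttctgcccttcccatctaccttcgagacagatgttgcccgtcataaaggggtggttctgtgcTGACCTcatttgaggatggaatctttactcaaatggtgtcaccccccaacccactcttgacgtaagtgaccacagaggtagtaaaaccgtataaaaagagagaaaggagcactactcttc
Il17f: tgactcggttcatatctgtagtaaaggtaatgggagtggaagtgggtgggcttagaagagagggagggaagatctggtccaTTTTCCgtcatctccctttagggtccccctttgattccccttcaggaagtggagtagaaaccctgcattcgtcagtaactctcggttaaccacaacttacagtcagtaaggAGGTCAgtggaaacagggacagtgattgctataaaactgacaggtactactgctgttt
Ccl20: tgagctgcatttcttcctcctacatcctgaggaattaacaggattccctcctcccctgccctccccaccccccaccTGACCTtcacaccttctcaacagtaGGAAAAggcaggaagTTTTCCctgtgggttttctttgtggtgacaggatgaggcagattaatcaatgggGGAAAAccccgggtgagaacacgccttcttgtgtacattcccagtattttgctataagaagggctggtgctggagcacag
Il13: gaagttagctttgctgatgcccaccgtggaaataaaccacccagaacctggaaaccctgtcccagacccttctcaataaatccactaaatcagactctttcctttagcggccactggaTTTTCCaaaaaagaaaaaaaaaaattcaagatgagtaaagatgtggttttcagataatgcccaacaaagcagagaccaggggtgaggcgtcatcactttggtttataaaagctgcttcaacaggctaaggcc
Il17a held an AP-1 match that begins 244 bases before the start and a ROR half-site 120 bases before it. Il17f held an NFAT core 169 and a ROR half-site 58 bases before the start. Ccl20 held a ROR half-site 174 bases before the start and NFAT cores at 149, 134 and 80. The single match of Il13 was an NFAT core at 132 bases. Over the same window, 6.75% of 32851 RefSeq promoters held an AP-1 match, 20.4% an NFAT core and 14.0% a ROR half-site, so each of these short words is common. No match overlaps another, and a match is a description of letters, not of binding.

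Several receptors and 1 regulator of the Th17 program were higher in restimulated Th17 cells. Il23r (probe set 10545154), the chain that makes cells responsive to IL-23, read 9.01, 9.17 and 9.22 against 5.60, 5.63 and 5.99 (10.5-fold, adjusted p = 3.49e-12), with a difference of 3.28 in the unstimulated parts. All its Th17 values sat well above the array median and all its Th1 values below it. Ccr6, the receptor for CCL20, read 8.58, 7.38 and 7.84 against 5.99, 6.08 and 5.89 (difference 1.94 ± 0.22, adjusted p = 3.65e-06). Il6ra, which binds the polarising cytokine IL-6, differed by 1.85 (adjusted p = 2.8e-07) and Il17re, a receptor chain for IL-17C, by 1.42 (adjusted p = 2.01e-06). Among transcription factors, Rora, which encodes RORα, read 11.60, 11.27 and 11.44 against 10.30, 10.03 and 10.04 (2.49-fold, adjusted p = 9.59e-09). The factors that act with the ROR proteins showed no call in either direction: Batf differed by -0.12 (95% interval -0.35 to 0.12), Irf4 by 0.36 (-0.27 to 0.99), Stat3 by -0.03 (-0.24 to 0.18) and Maf by -0.16 (-0.47 to 0.15). In this list of 18 measured genes 5 were higher and 2 lower, with a median of 0.01, against 2.95% and 1.02% of all genes. The lower genes included Ikzf3, which encodes the lymphoid zinc finger factor Aiolos, at -0.54 (adjusted p = 0.00803, 0.0551 without Th17 array 2 and 0.0679 without Th17 array 3, 0.0576 with only the compared groups in the fit).

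Against these differences, the recall of the Th1 cytokine and of the common helper cytokines was not called different. Ifng (probe set 10366586) read 12.94, 12.98 and 13.10 in Th17 cells and 13.35, 13.17 and 13.56 in Th1 cells, far above the array median in both. The 3 Th17 values lay below the 3 Th1 values, with a difference of -0.35 (95% interval -0.98 to 0.27, adjusted p = 0.824). Il2, the T cell growth factor, read 11.66, 11.41 and 11.94 in Th17 cells and 11.73, 11.14 and 12.23 in Th1 cells (difference -0.03, 95% interval -1.19 to 1.13). Tnf, an inflammatory cytokine, read 12.23, 12.32 and 12.71 in Th17 cells and 12.47, 11.65 and 12.35 in Th1 cells (difference 0.26, 95% interval -0.31 to 0.84). The arrays of the types overlap for Il2 and Tnf, and the intervals of all 3 genes span 0. Restimulation moved the mean of Il2 by 4.71 in Th17 and 5.53 in Th1 cells, and that of Tnf by 1.74 and 2.26. Csf2, which encodes GM-CSF, differed by -0.71 (95% interval -1.91 to 0.50) and Il3, a growth factor of blood cell precursors, by -1.04 (95% interval -2.73 to 0.65). Both were uncalled (adjusted p = 0.807 and 0.792), but with replicate numbers as pairs in a fit of the 6 arrays alone they were called lower (adjusted p = 0.0145 and 0.00289).

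Of the Th1 regulators, the defining factor was lower in Th17 cells by a call that was lost when 1 array was left out. Tbx21, which encodes T-bet, read 10.44, 11.48 and 11.27 in Th17 cells and 11.68, 11.88 and 11.78 in Th1 cells, a difference of -0.71 ± 0.18 (SE). Its adjusted p of 0.0219 was above the threshold without any of 3 arrays (0.0957 without Th1 array 2, 0.0789 without Th1 array 3 and 0.202 without Th17 array 1), and with only the compared groups in the fit (0.132). Th17 array 1, the array with the highest myeloid marker mean, had the lowest Tbx21 value. The difference was -0.40 without that array and -0.30 with the myeloid covariate (adjusted p = 0.692). Il12rb2, the inducible IL-12 receptor chain, differed by -0.34 (95% interval -0.82 to 0.14) and Cxcr3, a chemokine receptor of Th1 cells, by -0.07 (-0.32 to 0.17), both uncalled. Eomes, a relative of T-bet, stood at -0.56 (-1.49 to 0.38), Stat4 at -0.10 (-0.35 to 0.15) and Runx3 at -0.34 (-0.57 to -0.11), all without a call. In the opposite direction, Il18r1, a chain of the IL-18 receptor, was higher in Th17 cells, reading 11.38, 11.39 and 11.52 against 11.06, 10.44 and 10.81 (adjusted p = 0.000876). Among 14 genes of the Th1 program on the arrays 1 was higher, 2 were lower and the median was -0.28 (1 higher and 0 lower without Th1 array 2, 1 higher and 0 lower without Th1 array 3 and 1 higher and 0 lower without Th17 array 1). The shares of all genes were 2.95% higher and 1.02% lower.

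Several cytokine genes of the Th2 type were lower in restimulated Th17 cells than in Th1 cells. Il4 (probe set 10385832), the signature Th2 cytokine gene, read 7.90, 6.49 and 6.85 in Th17 cells and 9.84, 9.28 and 10.73 in Th1 cells. Every Th1 array lay above every Th17 array, at a difference of -2.87 ± 0.46 (SE), 7.31-fold lower in Th17 cells (adjusted p = 0.000261). The Il4 call held under every alternative run. In the unstimulated parts Il4 read 6.45, 6.29 and 6.46 in Th17 and 6.49, 6.66 and 6.57 in Th1 cells, so the means moved by 0.68 and 3.38 with restimulation. The interaction was -2.70 (adjusted p = 0.658), and of the alternatives only array weights called it (adjusted p = 0.00491). Il13 (probe set 10385837), which drives mucus and allergic responses, read 10.81, 9.27 and 10.62 against 12.52, 12.09 and 12.89 (difference -2.27, adjusted p = 0.0156, 0.0524 without Th1 array 1, 0.0948 without Th1 array 3 and 0.101 without Th17 array 2). Il5, a growth factor of eosinophils, read 5.94, 5.44 and 5.95 against 6.96, 7.10 and 8.31 (difference -1.68, adjusted p = 0.0242, 0.222 without Th1 array 3, 0.0565 without Th17 array 1, 0.0924 without Th17 array 2 and 0.0635 without Th17 array 3). Both cytokine genes separate the types on these arrays, as did 7.21% of all genes with Th17 below, and Th17 array 2 was lowest for each. Both calls were also lost with a trended robust prior (adjusted p = 0.0653 and 0.0843) and with the myeloid covariate (0.167 and 0.297). Il10, a cytokine that dampens inflammation, read 8.43, 6.76 and 7.05 against 9.20, 8.02 and 9.88, where Th17 array 1 lies above Th1 array 2 (difference -1.62, adjusted p = 0.0343, 0.127 without Th1 array 1, 0.288 without Th1 array 3, 0.167 without Th17 array 2 and 0.183 without Th17 array 3). The adjusted p of Il10 was 0.113 with only the compared groups, 0.0633 with cyclic loess, 0.109 with a trended robust prior and 0.073 with the myeloid covariate. Gata3, the Th2 transcription factor gene, was lower, at -0.45 (adjusted p = 0.0038). Ccr4, a chemokine receptor of Th2 and Th17 cells, went the other way, reading 12.00, 10.79 and 11.35 against 9.80, 9.90 and 10.21 (adjusted p = 0.00428, 0.245 at a difference of 0.64 in place of 1.41 with the myeloid covariate). Of 12 measured genes of the Th2 program 6 were lower and 1 higher, with a median of -0.63, against 1.02% of all genes called lower (1 higher and 3 lower without Th1 array 3 and 1 higher and 3 lower without Th17 array 2). Il6, the remaining lower member, read 3.44, 3.69 and 3.58 against 4.99, 4.97 and 6.18 (adjusted p = 0.000171), all under the array median. As the Th2 list was chosen with earlier results of these data known, its counts are descriptions only.

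Among the other ligands, lymphotoxin genes were higher in Th17 cells. Ltb, which encodes lymphotoxin β, a membrane ligand that shapes lymphoid tissue, read 11.37, 11.55 and 11.57 against 10.25, 10.44 and 10.16 (2.32-fold, adjusted p = 2.86e-07). Lta, its partner, read 8.02, 8.13 and 8.48 against 7.51, 7.08 and 7.39 (adjusted p = 0.00219). No Th1 array reached the lowest Th17 array for either gene. They were the 2 called members of the 16 other inducible cytokines (median 0.06, 3 higher and 3 lower with the replicate pairs in the 6 arrays alone). Of the 14 chemokine ligands, 1 was called, Xcl1, which attracts dendritic cells, at -1.46 (adjusted p = 0.0132, 0.0631 without Th1 array 1, 0.127 without Th1 array 3 and 0.0719 without Th17 array 2, 0.129 with the myeloid covariate). Ccl3, Ccl4 and Ccl5, chemokines of inflammatory sites, stood at -0.48 (95% interval -1.55 to 0.59), -1.38 (-2.42 to -0.34) and -0.14 (-0.38 to 0.10), uncalled. Beside 3.98% of all genes called, 1 of 14 is near the background, so the main count is no result about these ligands. With the replicate pairs in the 6 arrays alone the chemokine ligand count was 1 higher and 4 lower. From the TNF family, Cd70, the ligand of the costimulatory receptor CD27, was lower in Th17 cells, at 6.88, 6.44 and 7.04 against 8.82, 7.56 and 8.89 (adjusted p = 0.000144). Tnfsf10, the death ligand TRAIL, was lower, at -0.98 (adjusted p = 2.79e-05). Tnfrsf25, a costimulatory death receptor, was higher by 0.60 (adjusted p = 8.79e-05) and Tnfrsf26 by 1.16 (adjusted p = 0.000139). Cd40lg, a ligand by which helper cells license B cells, stood at -0.20 (95% interval -0.74 to 0.35). In all, 3 of 20 measured TNF family genes were higher and 2 lower (median -0.03), and 5 higher and 3 lower with the replicate pairs in the 6 arrays alone. For these lists too, the main shares of all genes were 2.95% higher and 1.02% lower.

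The receptors by which the cells read their surroundings differed in many members. Ifngr2 (probe set 10436865), the signalling chain of the IFN-γ receptor, read 10.36, 9.86 and 10.75 in Th17 cells and 7.55, 7.57 and 6.98 in Th1 cells, 7.77-fold higher (adjusted p = 4.46e-09). Its partner chain Ifngr1 stood at 0.30 (95% interval 0.01 to 0.60), without a call. Il7r, which encodes the IL-7 receptor α chain needed for survival at rest, read 12.49, 11.68 and 12.21 against 10.92, 10.67 and 10.51 (2.68-fold, adjusted p = 4.29e-06). Il1r2, a decoy receptor for IL-1, read 9.58, 8.67 and 9.67 against 7.28, 6.80 and 7.30 (adjusted p = 0.00197, 0.0748 with the myeloid covariate). The lower member was Il10ra, a chain of the IL-10 receptor, at -0.89 (adjusted p = 1.13e-05). Il2ra, the activation-induced IL-2 receptor chain, stood at 0.03 (95% interval -0.40 to 0.46). Of 22 measured cytokine receptor genes 8 were higher and 1 lower (median 0.25), and 2 higher and 1 lower with the myeloid covariate. In the main fit 2.95% of all genes were higher and 1.02% lower.

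Chemokine receptors shifted one way among those called. Ccr7 (probe set 10390763), a receptor for entry to lymph nodes, read 11.76, 11.28 and 11.86 in Th17 cells and 9.36, 9.86 and 9.10 in Th1 cells, 4.57-fold higher (adjusted p = 1.7e-07). Gpr183, which responds to oxysterols and positions cells within lymphoid tissue, read 10.32, 9.77 and 10.16 against 8.66, 8.60 and 8.62 (2.75-fold, adjusted p = 8.63e-08). With Ccr4, Ccr6, Ccr2 (0.54, adjusted p = 0.00803, 0.0601 without Th1 array 1 and 0.0563 without Th17 array 2), a receptor for monocyte chemokines, and S1pr1 (0.44, adjusted p = 0.0154, 0.164 without Th1 array 3 and 0.134 without Th17 array 1, 0.0832 with only the compared groups, 0.0635 with median centring, and 0.564 at 0.23 with the myeloid covariate), which lets cells leave lymphoid organs, 6 of 19 were higher and 0 lower. Of all genes 2.95% were called higher and 1.02% lower. The list median was 0.25, and the count was 7 higher and 4 lower with the replicate pairs in the 6 arrays alone. Cxcr6 and Cx3cr1, receptors of tissue-seeking effector cells, stood at -0.15 (95% interval -0.49 to 0.19) and -0.63 (-1.09 to -0.18).

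Integrins and adhesion molecules split in both directions, with 6 of 22 measured genes higher and 4 lower (median 0.12), against 2.95% and 1.02% of all genes. Itga3, the α subunit of a laminin receptor, read 9.27, 9.18 and 9.59 in Th17 cells and 7.24, 7.19 and 7.24 in Th1 cells (4.35-fold higher, adjusted p = 1.79e-08), and Itga6, of another laminin receptor, was higher by 0.68 (adjusted p = 0.00155, 0.0973 with the myeloid covariate). Itga1, of a collagen receptor, read 6.65, 7.66 and 7.42 against 8.96, 9.20 and 9.07 (3.56-fold lower, adjusted p = 1.49e-05). Itgb1, a β subunit that pairs with these α chains, was lower, at -1.04 (adjusted p = 1.3e-07). Emb, which encodes embigin, a transmembrane partner of a lactate transporter, read 12.07, 11.46 and 11.85 against 9.95, 9.71 and 9.56 (4.14-fold higher, adjusted p = 1.78e-09). Cd44, a marker of antigen-experienced T cells, stood at -0.01 (95% interval -0.30 to 0.28), and Cd69, an early activation marker, at 0.26 (-0.10 to 0.62).

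The ectoenzymes that make adenosine from ATP differed in opposite directions. Nt5e (probe set 10587639), which encodes CD73 and turns AMP into adenosine, read 11.03, 10.56 and 11.09 in Th17 cells and 8.69, 8.53 and 8.43 in Th1 cells, 5.07-fold higher (adjusted p = 6.21e-08). Entpd1 (probe set 10463070), which encodes CD39 and turns ATP into AMP, read 9.42, 9.74 and 9.58 against 11.06, 10.91 and 11.13, 2.74-fold lower (adjusted p = 2.23e-08). In both genes the arrays of the types do not overlap, and the unstimulated parts gave 2.13 and -1.18. The checkpoint receptors described here were not called: Pdcd1 (PD-1) stood at -0.64 (95% interval -1.09 to -0.18), Lag3 at -0.45 (-0.81 to -0.09), Havcr2 (TIM-3) at -0.96 (-1.68 to -0.24) and Ctla4 at 0.13 (-0.18 to 0.43). The list had 2 of 14 measured genes higher and 1 lower (median 0.04), and 2 higher and 3 lower with the replicate pairs in the 6 arrays alone. The main fit called 2.95% of all genes higher and 1.02% lower. Among genes of regulatory T cells, Nrp1, the semaphorin receptor neuropilin-1, was lower in Th17 cells at 9.29, 9.13 and 9.74 against 10.97, 10.78 and 10.95 (adjusted p = 1.61e-06) and Ikzf4, a lymphoid zinc finger factor, was higher by 1.06 (adjusted p = 0.00133). Foxp3, the defining factor of that lineage, stood at 0.92 (95% interval 0.35 to 1.48, adjusted p = 0.0622). Of the 11 measured genes of follicular helper cells 2 were higher, Pou2af1, a transcriptional coactivator best known in B cells, at 1.12 (adjusted p = 0.000627) and Tox2, a nuclear factor, at 1.24 (adjusted p = 0.00265, 0.174 at 0.66 with the myeloid covariate). Bcl6, their lineage factor, stood at 0.11 (95% interval -0.32 to 0.54).

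**Figure D3:**
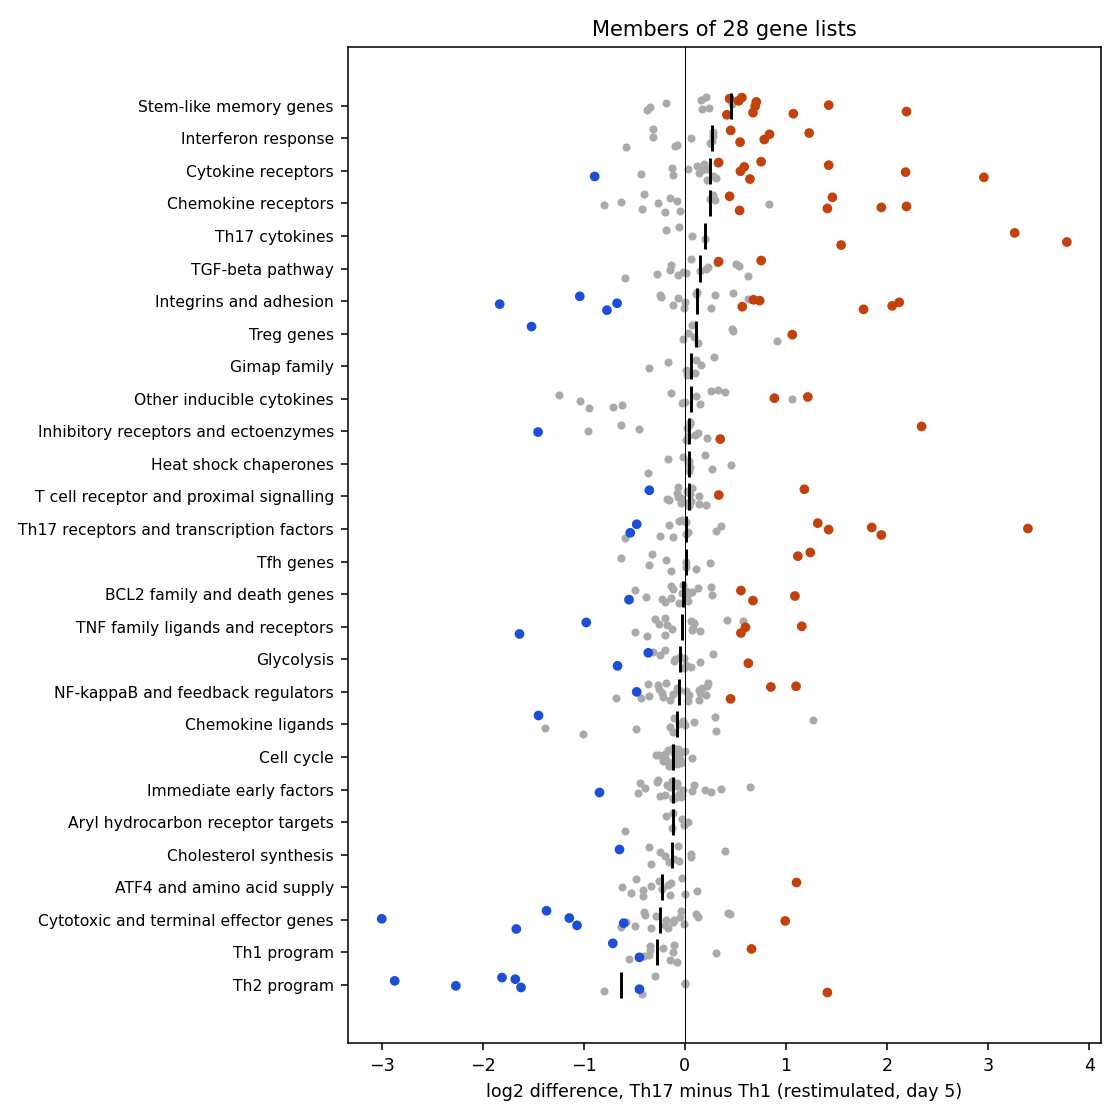
Each row is 1 of 28 gene lists and each point a measured member, placed by its log2 difference between restimulated Th17 and Th1 cells at day 5. Red points are called higher, blue points called lower and grey points not called, and black bars are list medians. The stem-like memory list has the highest median, 0.46, and the Th2 program the lowest, -0.63, beside a median of 0.0049 over all genes.

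Of 18 measured genes that mark long-lived, stem-like memory cells 10 were higher in Th17 cells and 0 lower, against 2.95% of all genes called higher, with a median difference of 0.46. The list was chosen with earlier results of these data known, so the count is a description only. Beside Ccr7 and Il7r, Bach2, a repressor that restrains effector differentiation, read 10.45, 10.02 and 10.38 in Th17 cells and 9.35, 9.13 and 9.14 in Th1 cells (adjusted p = 0.00379). Lef1, a nuclear partner of β-catenin, was higher by 0.53 (adjusted p = 0.00157, 0.0987 with the myeloid covariate), Satb1, a chromatin organiser, by 0.56 (adjusted p = 0.00552, 0.0672 without Th17 array 3) and Klf7, a Krüppel-like factor, by 0.71 (adjusted p = 4.89e-05). The survival gene Bcl2 read 11.57, 11.46 and 11.88 against 10.95, 10.83 and 11.11 (adjusted p = 0.00155). Uncalled members included Foxo1, a factor of resting T cells, at 0.24 (95% interval 0.01 to 0.46), Ctnnb1, which encodes β-catenin, at 0.17 (-0.02 to 0.36) and Myb at 0.16 (-0.12 to 0.44). The lowest member of the list, also uncalled, stood at -0.37. The count of higher members was 7 to 10 when an array was left out, with 1 member called lower without Th1 array 2 and 1 without Th17 array 3, and 6 higher and 0 lower with the myeloid covariate. A lower member was called under further alternatives. The counts were 9 higher and 1 lower with the replicate block, and the same with the block in the 6 arrays alone. Cyclic loess gave 8 higher and 1 lower, array weights 11 and 1, and genes above the median level 10 and 1.

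Cytotoxic and terminal effector genes were divided, with some markers lower in Th17 cells and several granule genes not called. Klrg1 (probe set 10547590), an inhibitory receptor of terminally differentiated cells, read 7.39, 8.18 and 7.55 in Th17 cells and 10.57, 10.87 and 10.67 in Th1 cells, 7.99-fold lower (adjusted p = 1.42e-11). Zeb2, a repressor that promotes terminal differentiation, read 7.84, 8.14 and 7.99 against 9.21, 9.16 and 9.71 (adjusted p = 0.000258). Anxa1, which encodes the phospholipid-binding protein annexin A1, was lower, at -1.67 (adjusted p = 2.91e-05), Klrk1, which encodes the NKG2D receptor, at -1.14 (adjusted p = 1.86e-05) and Gzma, granzyme A, at -1.07 (adjusted p = 0.000257). In contrast Gzmb, granzyme B, read 11.41, 12.38 and 12.30 in Th17 and 12.11, 12.27 and 12.30 in Th1 cells, overlapping, with a difference of -0.20 (95% interval -0.60 to 0.20). Prf1, the pore-forming perforin, stood at 0.11 (-0.29 to 0.51) and Prdm1, which encodes Blimp-1, at -0.39 (-0.69 to -0.10). Klrc1, an NKG2 receptor chain, was higher by 0.99 (adjusted p = 0.0076, 0.0663 without Th1 array 2 and 0.0829 without Th17 array 3). Of 26 measured genes 6 were lower and 1 higher (median -0.24), against 1.02% of all genes called lower. These members were picked with earlier results known, so the count is a description only. With the replicate pairs in the 6 arrays alone the counts were 3 higher and 11 lower.

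**Figure D4:**
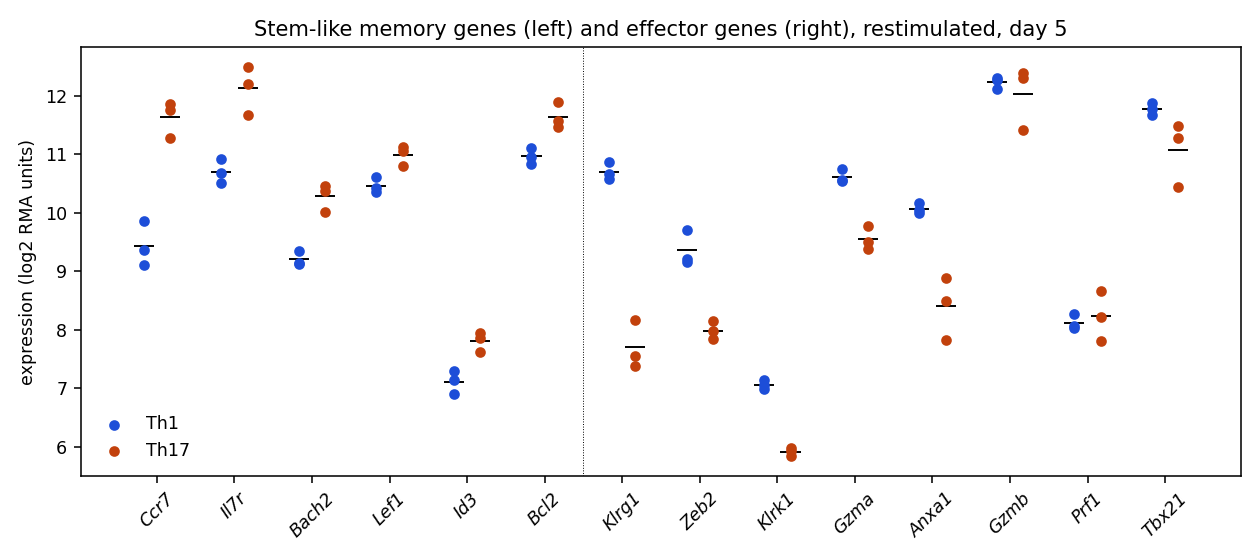
Expression in log2 RMA units of 6 stem-like memory genes (left of the dotted line) and 8 effector genes (right) on each restimulated day 5 array, with a bar for the mean of 3 arrays. The Th17 points (red) lie above the Th1 points (blue) for each memory gene shown and below them for Klrg1, Zeb2, Klrk1, Gzma and Anxa1, while those of Gzmb and Prf1 overlap. The memory genes shown are all called members of their list. The limma call of Id3 was lost under several alternatives. Among them were the replicate block (adjusted p = 0.0603), leaving out Th1 array 1 (0.234) and the myeloid covariate (0.8).

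Of 27 measured immediate early factors, which respond first to a signal, 1 was called, beside 3.98% of all genes, so the count is near that background and is no result about these genes. With the replicate pairs in the 6 arrays alone the counts were 1 higher and 3 lower. The called gene was Fosl1, at -0.85 (adjusted p = 0.0194, 0.0733 without Th1 array 2, 0.13 without Th1 array 3, 0.0659 without Th17 array 1, 0.0528 without Th17 array 2 and 0.0614 without Th17 array 3, 0.399 with the myeloid covariate). Fos, a subunit of the AP-1 factor, stood at -0.06 (95% interval -0.97 to 0.85), Egr2, a factor induced by the T cell receptor, at -0.25 (-0.88 to 0.38), Nr4a1, an orphan nuclear receptor that tracks the strength of that signal, at -0.08 (-0.40 to 0.25) and Myc at -0.17 (-0.75 to 0.40). The interval of Fos is the widest of these, and differences within these intervals were not resolved. Among the genes that feed back on the signal, Socs1 and Socs2, inhibitors of cytokine receptors, were higher in Th17 cells by 0.85 (adjusted p = 0.00193) and 1.10 (adjusted p = 0.000524, a difference of 0.69 with the myeloid covariate), and Socs3 stood at 0.21 (95% interval -0.16 to 0.59). That list had 3 of 27 measured genes higher and 1 lower, against 2.95% and 1.02% of all genes (median -0.06, 2 higher and 0 lower without Th1 array 1 and 2 higher and 0 lower without Th1 array 3). Among the receptor complex and its kinases, Txk, a kinase of the Tec family, was higher, at 10.31, 10.26 and 10.30 against 8.92, 9.18 and 9.22 (2.27-fold, adjusted p = 1.14e-06). In this list 2 of 20 measured genes were higher and 1 lower, against the same shares of all genes, with a median of 0.04. Of 17 TGF-β pathway genes 2 were higher and 0 lower (median 0.15, 0 higher and 0 lower without Th1 array 3, 1 higher and 0 lower without Th17 array 1, 4 higher and 0 lower without Th17 array 2 and 0 higher and 0 lower without Th17 array 3), and of 7 targets of the aryl hydrocarbon receptor 0 were called by limma, with 1 at an unadjusted p under 0.05. Ahr itself stood at -0.59 (95% interval -0.97 to -0.22).

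The lists of interferon, survival, growth and stress genes differed in how many members were called, beside 3.98% of all genes. The interferon response had 5 of 15 higher and 0 lower (median 0.27, 1 higher and 0 lower without Th1 array 1, 2 higher and 0 lower without Th1 array 3, 3 higher and 0 lower without Th17 array 2 and 1 higher and 0 lower without Th17 array 3), and Oasl2, an antiviral gene, read 9.24, 8.91 and 9.35 in Th17 cells against 8.19, 7.94 and 7.68 in Th1 cells (adjusted p = 0.000731). In the list of BCL2 family and death genes 3 of 21 were higher and 1 lower (median -0.02, 2 higher and 0 lower without Th1 array 3). Bik, a pro-death member of that family, read 8.05, 8.28 and 8.29 against 7.13, 7.13 and 7.09 (2.13-fold higher, adjusted p = 5.38e-09). Glycolysis had 1 of 15 higher and 2 lower (median -0.05, 0 higher and 0 lower without Th1 array 3 and 1 higher and 0 lower without Th17 array 1). In the cell cycle list limma called 0 of 23 genes, with 4 at an unadjusted p under 0.05 and differences from -0.28 to 0.07 (median -0.11). It called 0 of 10 heat shock chaperones (1 at an unadjusted p under 0.05) and 0 of 8 genes of the Gimap family of lymphocyte GTPases (2 at an unadjusted p under 0.05). In lists of this size, counts of 0 are not far from the share of all genes called. The cholesterol synthesis list had 0 of 12 higher and 1 lower. That gene was Scd2, a fatty acid desaturase and not an enzyme of cholesterol synthesis, at -0.66 (adjusted p = 0.00297).

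Some of the largest differences fell outside any list. Olfr60 (probe set 10568956), annotated as an olfactory receptor gene, had the largest difference of the named genes, reading 9.19, 8.44 and 8.61 in Th17 cells and 4.39, 4.87 and 4.75 in Th1 cells (16.9-fold, adjusted p = 3.49e-12). Pcsk1, a protease that processes prohormones, read 9.39, 8.35 and 9.17 against 5.92, 6.42 and 6.08 (7.11-fold higher, adjusted p = 4.46e-09). Tmem176b, a membrane protein gene, read 10.56, 10.35 and 11.00 against 7.82, 7.86 and 7.90 (6.86-fold higher, adjusted p = 5.05e-11). For each of these genes the Th17 arrays all sit above the array median and the Th1 values of Olfr60 and Pcsk1 below it. Also higher were Igfbp4, a binding protein for insulin-like growth factors (2.67, adjusted p = 4.53e-07), Trpm6, a magnesium channel (2.52, adjusted p = 1.78e-09), Cysltr1, a receptor for cysteinyl leukotrienes (2.46, adjusted p = 5.01e-07) and Atp6v0d2, a proton pump subunit (2.52, adjusted p = 4.44e-05). Wfdc17, a gene of activated myeloid cells, read 10.87, 7.62 and 8.99 against 5.41, 5.91 and 6.15 (adjusted p = 0.000863), and like Lcn2 it was highest on Th17 array 1. With the myeloid covariate its difference was 1.65 in place of 3.34.

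On the lower side, Klk1b11 (probe set 10552570), a kallikrein gene of a family of related genes, read 5.95, 5.45 and 5.01 in Th17 cells and 8.29, 9.02 and 8.64 in Th1 cells (9.06-fold lower, adjusted p = 9.63e-10). Akr1c18, an aldo-keto reductase that inactivates progesterone, read 5.16, 5.62 and 4.80 against 7.90, 7.79 and 8.35 (7.05-fold lower, adjusted p = 2e-09). Whether the probes of these 2 genes also detect other members of their families was not tested. Epas1, which encodes the hypoxia-inducible factor HIF-2α, read 9.63, 9.27 and 9.63 against 11.46, 11.47 and 11.34 (3.76-fold lower, adjusted p = 1.21e-07). Each of these 3 genes separates the types without overlap, which the rule that named them required. Prxl2a, a peroxiredoxin-like gene, was lower, at -2.61 (adjusted p = 3.5e-08), Dnase1l3, a secreted nuclease, at -2.05 (adjusted p = 9.67e-05) and Ccn4, a secreted matrix protein, at -2.00 (adjusted p = 0.00019). Of the 793 called genes, 15 had arrays that overlapped between the types. Over all genes, the Th17 arrays lay all above the Th1 arrays in 10.9% and all below in 7.21%.

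**Figure D5:**
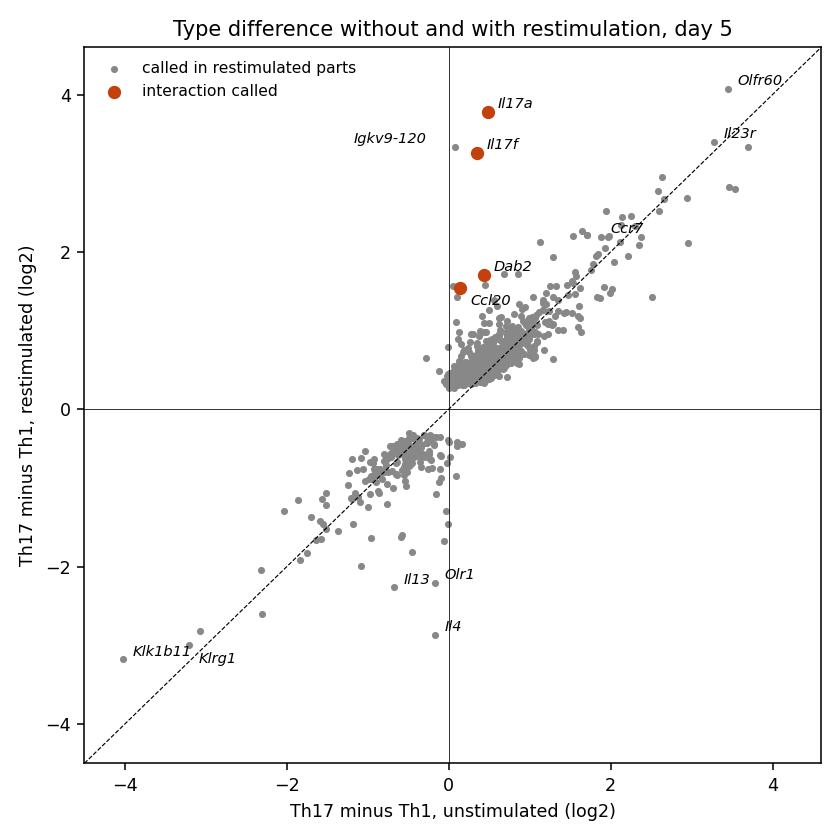
Each point is a gene called between restimulated Th17 and Th1 cells at day 5. The horizontal axis is the log2 difference, Th17 minus Th1, in the unstimulated parts and the vertical axis that in the restimulated parts, with a dashed line where both are equal. Il23r, Olfr60 and Klrg1 lie near the line, while Il17a (0.49 without and 3.78 with restimulation) and Il17f (0.35 and 3.26) lie far above it. Large red points are the 4 genes with a called interaction.

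Whether the day 5 difference was the one seen at day 15 was tested in the same model, with 4 Th17 and 2 Th1 restimulated arrays of day 15. The interaction of type and day called 188 genes (0.943%), 86 with a more positive and 102 with a more negative difference at day 15. That count ran from 83 to 557 when an array was left out (85 without Th1 array 2, 100 without Th1 array 3, 86 without Th17 array 1, 337 without Th17 array 2 and 83 without Th17 array 3 of day 5, 557 without Th1 array 2, 435 without Th17 array 1, 107 without Th17 array 2 and 116 without Th17 array 3 of day 15), and the genes that follow are ones whose call held under every alternative run. Il17f read 8.06, 7.19, 7.62 and 7.40 on Th17 arrays 1 to 4 and 6.83 and 7.26 on Th1 arrays 1 and 2 of day 15, a difference of 0.52 in place of 3.26 (interaction -2.74, adjusted p = 3.04e-06). Il17a read 8.93, 6.85, 7.32 and 7.02 against 6.59 and 6.38 (interaction -2.73, adjusted p = 0.0025), and Il23r 8.18, 8.04, 7.95 and 7.71 against 6.58 and 6.25 (interaction -1.84, adjusted p = 0.000477). For all 3 genes the difference was smaller at day 15. Ccl20 went from 1.55 to 0.04 (adjusted p = 0.00175), and Klk1b11 from -3.18 to 0.00 (adjusted p = 9.66e-06). Cd24a, a mucin-like surface protein, changed sign, from 1.77 at day 5 to -1.23 at day 15 (interaction -3.00, adjusted p = 0.000632). Dapl1, a gene of resting memory T cells, had a larger difference at day 15, 3.81 in place of 0.89 (interaction 2.91, adjusted p = 6.92e-05).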

How the data were processed

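RNA was amplified with the Ambion WT Expression kit and hybridised to mouse Affymetrix arrays, per the labels' protocols. The authors deposited log2 values from RMA, and the submitters' processing notes name Affymetrix Expression Console. Its version, and the set of arrays normalised together, were not given in the sources used here. The procedure equalises the distributions of arrays, so a shift of all transcripts would not show. Of 35556 probe sets the 21789 with 1 gene symbol were used, with the probe set of highest mean for the 999 genes that had several, leaving 19938 genes. Arrays carry no read depth, and their small number bounds the precision.

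The 24 post-transfer arrays, in 8 groups, entered a model of group means (16 residual degrees of freedom), fitted with lmFit and eBayes of limma 3.58.1 in R 4.3.3, and p-values were adjusted by Benjamini-Hochberg over 19938 genes. The comparison was Th17 minus Th1 on 3 against 3 restimulated arrays of day 5, and the interactions were with restimulation and with day. Day 0, with 1 array per group, was left out of the model. The scripts were tested on simulated data.

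Named genes were up to 15 each way with the largest differences among called genes without overlap, leaving out clone and predicted names, a panel of 26 genes of which 23 were measured, up to 4 called members of each of 35 lists (516 of 561 entries measured), and up to 6 called genes each way for the interactions. Not all are described: mainly those whose call held without any 1 array are, which was decided with the values known. Other list members are named as examples, again with values known. The arrays, genes and lists were chosen with earlier results of these data known.

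Whether replicate numbers pair the arrays was checked on the deviations from group means over 9969 genes. Same-numbered restimulated day 5 arrays of the types correlated at 0.44, 0.48 and 0.22, and each of the 6 correlated best with its own number, so the number was also fitted as a block. Further alternatives left out each array, weighted the arrays, used a trended robust prior, averaged probe sets, centred on array medians, applied cyclic loess, kept the more highly expressed genes, or fitted the compared groups alone.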

Additional observations from a re-analysis of the deposited data

Results flagged for a closer look

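The difference between the types was another one with restimulation than without, by the interaction test in limma, for 4 genes. The interaction was 3.29 for Il17a (adjusted p = 0.00082), 2.91 for Il17f (adjusted p = 5.18e-07), 1.40 for Ccl20 (adjusted p = 0.0159) and 1.27 for Dab2 (adjusted p = 0.0382). The calls of Ccl20 and Dab2 were lost when single arrays were left out (adjusted p = 0.0531 to 0.0897 and 0.06 to 0.218) and with only the compared groups in the fit (0.116 and 0.107). That of Dab2 was also lost when probe sets were averaged, at an interaction of 0.67 (0.577), and with the myeloid covariate (0.0613).

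Between day 5 and day 15 of restimulated cells, the difference between the types was tested in the same way for the named genes. It was more negative at day 15 for Igkv9-120, an immunoglobulin light chain segment (-4.13, adjusted p = 0.0235), for Cd24a (-3.00, adjusted p = 0.000632), Il17f (-2.74, adjusted p = 3.04e-06) and Il17a (-2.73, adjusted p = 0.0025). Further genes with a more negative difference were Il1r2 (-2.70, adjusted p = 0.0318), Lrrc32, which encodes a docking receptor for latent TGF-β (-2.14, adjusted p = 0.00692), Il23r (-1.84, adjusted p = 0.000477) and Olfr60 (-1.78, adjusted p = 0.00299). Smaller shifts of that direction were found for Ccl20 (-1.51, adjusted p = 0.00175), Gzmb (-1.23, adjusted p = 0.0333) and Rora (-0.89, adjusted p = 0.00561). More positive at day 15 were Klk1b11 (3.18, adjusted p = 9.66e-06), Dapl1 (2.91, adjusted p = 6.92e-05), Lrrc6 (1.91, adjusted p = 0.0025), Kcnh5, a potassium channel (1.53, adjusted p = 0.0025), Akr1c18 (1.31, adjusted p = 0.0327) and Mmp25, a membrane-bound protease (1.28, adjusted p = 0.0168).

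Of these 17 calls, 9 held under every alternative. Those of Lrrc32, Olfr60 and Rora were lost with array weights (adjusted p = 0.0612, 0.0751 and 0.0758) and under no other alternative run. The remaining calls were lost with array weights and also when single restimulated arrays were left out. For Igkv9-120 these were Th1 arrays 1 and 3 and Th17 arrays 1 and 3 of day 5 and Th1 array 2 of day 15 (adjusted p = 0.0588 to 0.0738). For Il1r2 they were Th1 arrays 1, 2 and 3 and Th17 arrays 1 and 3 of day 5, and Th1 array 1 and Th17 arrays 2, 3 and 4 of day 15 (0.0541 to 0.184). For Gzmb they were Th1 arrays 1, 2 and 3 and Th17 arrays 2 and 3 of day 5, and Th1 array 2 and Th17 arrays 2 and 3 of day 15 (0.052 to 0.101). For Akr1c18 they were Th1 array 3 and Th17 arrays 1 and 3 of day 5, and Th1 array 2 and Th17 arrays 2 and 4 of day 15 (0.0567 to 0.105). For Mmp25 it was Th1 array 1 of day 15 (0.0616), and the replicate block gave 0.0551. With only the compared groups in the fit the adjusted p was 0.0835 for Il1r2, 0.103 for Gzmb and 0.11 for Akr1c18. A trended robust prior gave 0.0679 for Igkv9-120, 0.0814 for Il1r2 and 0.0533 for Gzmb. Median centring gave 0.059 for Il1r2 and 0.0577 for Akr1c18. The myeloid covariate gave 0.0527 for Il1r2 and 0.050006 for Akr1c18.

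Mmp25 also had a lone array. On the 4 restimulated Th17 arrays of day 15 it read 8.23, 8.86, 8.90 and 8.94, where the first value lies below the others by most of the range. That test was made on 17 genes, and chance marks about 1 in 20 groups.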

How the results depend on the processing

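Of the 94 genes named as called in the main comparison, 60 kept their call under every alternative. The main count of 793 was 370 with the myeloid covariate and 488 to 899 over single arrays left out. It was 831 (615 higher, 216 lower) with the replicate block and 1096 (745, 351) with the block in the 6 arrays alone, and 770 of the 793 were also called with the block. Median centring gave 488 higher and 250 lower, and loess 596 and 270. The interaction with restimulation (4 genes) was called for 6 genes with the replicate block, 1 among genes above the median, 12 with array weights, and 2 to 9 over arrays left out. Arrays of equal number correlated between the unstimulated types at 0.03, 0.07 and -0.13, and between the restimulated and unstimulated parts at 0.16, 0.22 and 0.16 in Th1 and 0.41, 0.38 and 0.47 in Th17 cells. The interaction with day (188 genes) gave 176 (43 higher, 133 lower) with the block, 70 with only the compared groups, 334 with loess, 26 with array weights, and 83 to 557 over arrays left out. The smallest counts without an array come with fewer samples. Uncalled differences near 0 changed sign: with the myeloid covariate Il21 stood at 0.65, Ifng at 0.18, Il12rb2 at 0.23, Cxcr3 at 0.11, Il2 at 0.20 and Gzmb at 0.23, and over arrays left out Il21 ran from -0.52 to 0.0206, Il2 from -0.31 to 0.24, Cxcr3 from -0.19 to 0.0786 and Gzmb from -0.37 to 0.11. The cause of these changes was not tested. Levels below the array median may be background.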

Other observations

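Of 12 genes of the circadian clock, a group put together after values were seen, 6 were called higher in restimulated Th17 cells at day 5, 1 lower and 5 neither. Over all genes 2.95% were called higher and 1.02% lower, and since the group and those described after it were picked with their values known, the counts are descriptions only. Arntl, which encodes the activator BMAL1, read 9.82, 9.42 and 9.63 in Th17 cells and 7.90, 7.40 and 7.63 in Th1 cells (3.93-fold higher, adjusted p = 3.14e-11). Cry1, a repressor of the clock, read 9.40, 9.28 and 9.35 against 7.72, 7.76 and 7.74 (3.04-fold higher, adjusted p = 3.95e-12). Both genes separate the types with little spread within a type. Nr1d1 and Nr1d2, the REV-ERB repressors, were higher by 1.48 (adjusted p = 3.72e-06) and 1.26 (adjusted p = 2.15e-06), and Rora and Clock were the other higher genes. Per2 was lower, at -0.59 (adjusted p = 0.00222), while Per1 (0.14, 95% interval -0.21 to 0.50), Dbp (0.19, -0.08 to 0.46) and Tef (-0.07, -0.28 to 0.14) were not called. The call of Clock was lost without Th17 array 3 (adjusted p = 0.0614), with only the compared groups (0.0563) and with the myeloid covariate (0.0667), and that of Per2 with the myeloid covariate. In the unstimulated parts Arntl differed by 1.84 and Cry1 by 1.53. The hours at which samples were taken were not used here.

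Receptors for lipid mediators, also chosen after their values were seen, had 4 of 9 higher and 1 lower. Beside Cysltr1, Ltb4r1, the receptor for leukotriene B4, read 7.98, 8.57 and 8.39 in Th17 cells and 6.64, 6.66 and 6.56 in Th1 cells (3.23-fold higher, adjusted p = 1.7e-07), Cysltr2 was higher by 1.00 (adjusted p = 0.000221) and Lpar6, a receptor for lysophosphatidic acid, by 1.17 (adjusted p = 4.22e-07). Of 7 genes of the insulin-like growth factor axis 4 were higher and 1 lower. Igf1r, the receptor itself, read 9.03, 8.44 and 9.30 against 6.82, 6.60 and 6.57 (4.8-fold higher, adjusted p = 9.21e-09), the adaptor Irs2 was higher by 1.28 (adjusted p = 0.0012), and Igf2bp3, an RNA-binding protein, was lower, at -1.21 (adjusted p = 3.31e-08). Among 7 sialyltransferase genes, enzymes that cap glycans with sialic acid, St6gal1 was higher by 1.57 (adjusted p = 3.46e-05) and St3gal6 was lower, at -1.42 (adjusted p = 0.000165), with 4 higher and 1 lower in all.

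Of the 9 measured Klk1b genes 4 were lower and 0 higher, among them Klk1b8 (-1.16) and Klk1b9 (-1.15), and of 6 Akr1c genes 3 were lower and 0 higher, among them Akr1c13 (-0.97). Whether the probes of a member also detect transcripts of others in its family was not tested. Tmem176a, the neighbour of Tmem176b, was higher by 2.33 (adjusted p = 4.9e-09), Arrb1, which encodes a β-arrestin, by 1.59 (adjusted p = 5.38e-09) and Kit, a growth factor receptor, by 1.58 (adjusted p = 9.6e-08). Igkv9-120 read 9.36, 8.41 and 9.04 on the Th17 arrays and 5.15, 6.86 and 4.80 on the Th1 arrays after restimulation, and in the unstimulated parts 9.74, 8.14 and 7.49 on the Th17 arrays and 7.04, 8.78 and 9.33 on the Th1 arrays (adjusted p = 0.00118 after restimulation, 0.0598 with the myeloid covariate).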
